A study of Mus musculus with 15 samples.

Results

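The comparison covers 6 RNA sequencing libraries of sorted mouse lung epithelial cells, chosen by their titles out of 15 in the series: 3 labelled shSox9 and 3 from the niche without that label. Both groups came from BALB/c lungs taken 7 days after 800000 labelling 4T1 cells, a mouse mammary carcinoma line, were injected into the tail vein, and the series' text gives 5 lungs pooled for each replicate. The niche is the lung tissue beside the cancer cells, and the sample titles name the cells by EpCAM, an epithelial surface protein. The cells were sorted by flow cytometry. The only labelled difference between the groups is shSox9, a short hairpin RNA against Sox9. The sources used here do not give which cells received the hairpin, whether the niche group had a control hairpin, or the age of the mice. Another 3 libraries of epithelial cells from distal lung, and 6 of 4T1 cells from culture or recovered from lung, served for levels beside the comparison.

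Alveolar type 2 (AT2) cells make pulmonary surfactant and divide to replace themselves and the flat alveolar type 1 (AT1) cells that carry out gas exchange. SOX9 is a transcription factor of the distal lung tip in the embryo and of epithelial progenitors in several adult tissues, and carcinoma cells can express it too. Leukocytes carry CD45 (Ptprc) and, in the macrophage lineage, depend on the transcription factor PU.1. Interferon raises a common set of antiviral and antigen presentation genes in most cell types, epithelium and leukocytes alike.

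Sox9 itself was not lower in the libraries labelled shSox9, genes of AT2 and AT1 cells were higher, and genes of macrophages, antigen presentation and the interferon response were lower. The 6 libraries held 16034105 to 21581590 expected counts and 22629 to 23781 detected genes. Mitochondrially encoded genes took 1.15 ± 0.143% of counts in the niche group and 1.70 ± 0.427% under shSox9 (SD, n = 3 each; exact two-sided permutation p = 0.3, where 3 against 3 cannot go below 0.1). The 10 most abundant genes took 6.99 ± 0.338% and 9.75 ± 1.25% of counts (SD, n = 3 each; exact permutation p = 0.1).

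The epithelial label was checked by deposited TPM, a level scaled by transcript length. Sftpc, the surfactant protein C gene of AT2 cells, lay at 17428 to 22428 TPM in the niche libraries and 61954 to 108921 TPM under shSox9. Epcam lay at 27.8 to 68.7 TPM and 21.7 to 32.5 TPM. 4T1 cells also expressed Epcam, at a mean of 67.6 TPM in culture and 45.4 TPM from lung, and their part in its level was not tested. Other cell types were also seen: the collagen gene Col1a1 lay between 1265 and 2162 TPM in the 6 libraries, above Epcam in each, and between 207 and 272 TPM in distal libraries. Ptprc lay at 76.0 to 91.8 TPM in niche libraries, above Epcam in each, and 14.0 to 31.7 TPM under shSox9, below Epcam in each. Leukocyte RNA was thus present in libraries of both groups.

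The level of Sox9 (ENSMUSG00000000567, chr11:112782224-112787760 on GRCm38) was measured first, as the check of the label. Sox9 stood at 64.9, 58.8 and 33.0 CPM (counts scaled to a common library total) in niche replicates 1 to 3 and at 91.1, 62.4 and 36.8 CPM in shSox9 replicates 1 to 3. The groups overlapped and the shSox9 mean, 63.4 ± 27.2 CPM, was not below the niche mean of 52.2 ± 16.9 CPM (SD, n = 3 each). Sox9 had a log2 fold change of 0.26 (SE 0.27), which did not pass edgeR's quasi-likelihood test (adjusted p = 0.548), and it was -0.05 (adjusted p = 0.915) without shSox9 replicate 1. A lower Sox9 level was thus not measured under the label, and each difference below is given under the label shSox9 and not as an effect of less Sox9. Distal libraries held 5.12 ± 0.662 CPM of Sox9, cultured 4T1 cells 207 ± 16.8 CPM and 4T1 cells from lung 350 ± 62.9 CPM (SD, n = 3 each).

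Because 4T1 cells express Sox9, their RNA was followed with 11 genes that had at least 20 CPM in every 4T1 library and at most 1 CPM in every distal library, among them the homeobox gene Hoxa10 and the transcription factor gene Tfap2a. The median panel level, as a share of its level in 4T1 cells from lung, was 19.8%, 23.01% and 13.7% in the niche libraries and 19.7%, 16.9% and 10.9% under shSox9. The ranges overlapped, and the difference of -3.02 percentage points gave an exact two-sided permutation p of 0.4 (n = 3 each). Of 10 panel genes tested, none was called higher and 1 lower, Il24 (log2 fold change -1.43, edgeR adjusted p = 0.033). In the distal libraries the share was 0.868% to 1.24%. That share multiplied by the Sox9 level of 4T1 cells from lung came to 69.3, 80.5 and 48.1 CPM for the niche libraries and 68.8, 59.1 and 38.2 CPM under shSox9, beside the measured Sox9 given before. Within both groups replicate 3 had the lowest Sox9 and the lowest panel share. How much of the Sox9 RNA came from 4T1 cells was not tested.

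**Figure D1:**
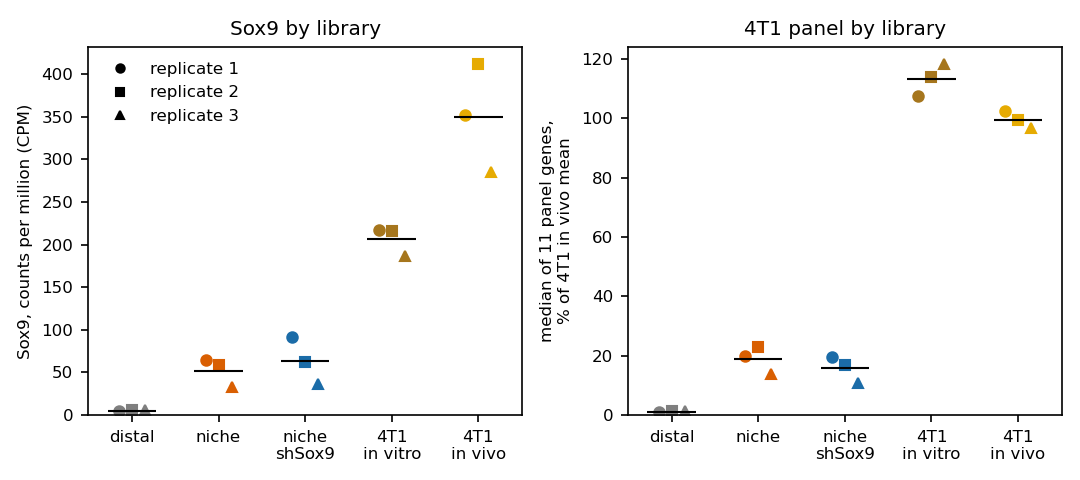
Sox9 in plain CPM (left) and the median of 11 genes of the 4T1 panel as a percentage of its mean in 4T1 cells from lung (right), for all 15 libraries in 5 groups; symbols are replicates and lines are group means. The shSox9 libraries, at 36.8 to 91.1 CPM of Sox9, overlap the niche libraries at 33.0 to 64.9 CPM.

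Across all genes, 17640 were tested and 3616 passed an adjusted p of 0.05 in edgeR's quasi-likelihood test, 20.5% of those tested. Of these, 1707 were higher under shSox9 (9.68%) and 1909 were lower (10.8%). With upper-quartile scaling the split became 2232 higher and 1601 lower, that is 58.2% of calls higher in place of 47.2%, and the median log2 fold change of all genes moved from 0.02 to 0.09. The number of higher calls fell to 940 without niche replicate 1, 1107 without niche replicate 2 and 1101 without shSox9 replicate 2, and the total was 2238 without niche replicate 1. Of all tested genes, 38.0% did not overlap between the 3 niche and 3 shSox9 libraries. Counts in the lists described next are read against these shares, genes that passed are termed called, and the size of a rise or fall is a log2 fold change.

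Genes were then separated by lists of 128 epithelial and 134 leukocyte genes, with no gene in both. Over all 38 lists, 23 genes were in more than 1 list, so counts of different lists are not fully independent. Of 123 epithelial genes tested, 53 were called higher and 12 lower, whereas of 125 leukocyte genes tested 2 were called higher and 65 lower. The summed epithelial level was 23423, 23898 and 19359 CPM in niche replicates 1 to 3 and 45378, 63544 and 73842 CPM in shSox9 replicates 1 to 3. Of this sum Sftpc alone held a mean of 8921 CPM in niche libraries and 38398 CPM under shSox9. The summed leukocyte level was 13735, 11719 and 13716 CPM against 5729, 2775 and 3490 CPM. These CPM values, and those that follow, are scaled by TMM factors. Neither sum overlapped between the groups, and shSox9 replicate 1 had the lowest epithelial and the highest leukocyte level of its group. In bulk libraries fewer cells of a type and less RNA per cell cannot be told apart.

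**Figure D2:**
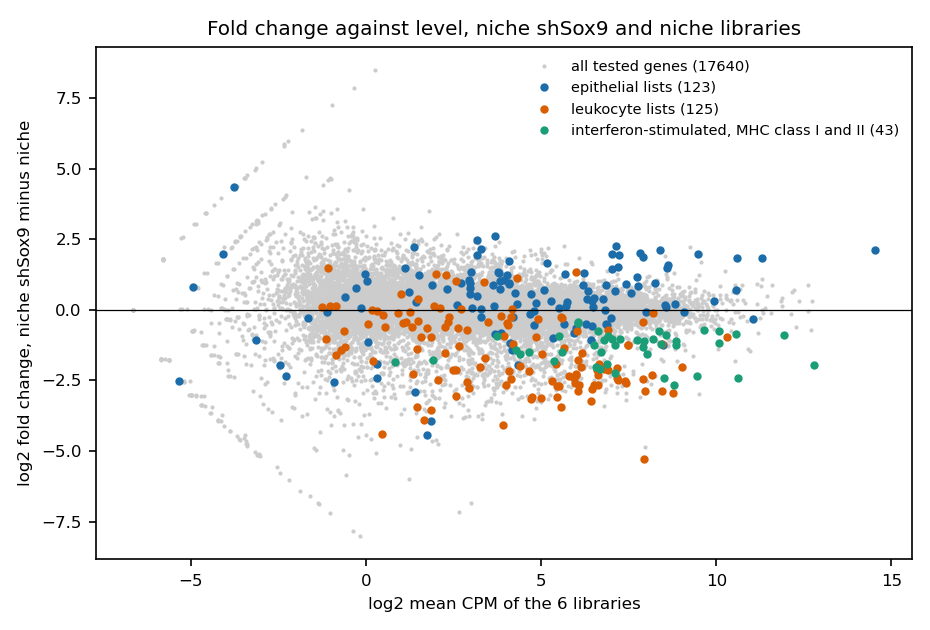
Log2 fold change, shSox9 minus niche, against the log2 mean CPM of the 6 libraries for all 17640 tested genes, with genes of the epithelial lists, the leukocyte lists and the interferon and MHC lists in colour. Leukocyte points lie mostly below 0 (65 of 125 called lower) and epithelial points mostly above 0 (53 of 123 called higher).

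AT2 genes were higher as a group: 20 of 23 tested were called higher and none lower, by edgeR and by DESeq2, with a median log2 fold change of 1.74 beside 0.02 for all tested genes. Sftpc (chr14:70520949-70524081) measured 9563, 9411 and 7789 CPM in the niche libraries and 25779, 38502 and 50913 CPM under shSox9. Each shSox9 library was above each niche library, and Sftpc rose by 2.11 (SE 0.28, edgeR adjusted p = 0.000564). Sftpb (chr6:72304610-72314371), for surfactant protein B, measured 337, 345 and 182 CPM against 974, 1304 and 1117 CPM and rose by 1.97 (SE 0.24, edgeR adjusted p = 0.000308). Lamp3, a protein of lamellar bodies where surfactant is stored, rose by 1.98, and Slc34a2, the phosphate transporter of AT2 cells, by 2.11. Hc, for complement C5, rose by 2.27, and Cxcl15, a lung chemokine, by 1.88. The other members were not called: Ctsh (-0.06), a protease that processes surfactant proteins, Cebpa (-0.24), a transcription factor also expressed in myeloid cells, and Lyz2 (-0.31), a lysozyme gene that macrophages express as well.

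AT2 genes stayed below their distal level in all 6 libraries. Summed over the list they came to 16147, 15704 and 12675 CPM in niche libraries, 37016, 54125 and 64336 CPM under shSox9, and 241356 to 322481 CPM in distal libraries. The niche and shSox9 ranges did not overlap (exact two-sided permutation p = 0.1, n = 3 each, the smallest possible; 0.143 after adjustment over 20 lists). Sftpc alone carried most of this sum in each group.

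Of 16 AT1 genes tested, 8 were called higher and none lower, by edgeR and by DESeq2, with a median of 0.47. Ager, for the receptor RAGE on AT1 cells, measured 212, 247 and 147 CPM in niche libraries and 446, 615 and 644 CPM under shSox9. No library of one group reached the other, and Ager rose by 1.49 (SE 0.19, edgeR adjusted p = 0.000457). Cldn18, a claudin of alveolar tight junctions shared by AT1 and AT2 cells, rose by 1.95, Gprc5a, a receptor of lung epithelium, by 1.03 and Emp2, a membrane protein abundant in AT1 cells, by 0.61. Hopx, an AT1 transcription cofactor, was not called, with 9.18, 10.7 and 9.03 CPM against 8.72, 7.70 and 13.1 CPM (log2 fold change 0.02). The ratio of the AT1 sum to the AT2 sum was 0.0891, 0.117 and 0.126 in niche libraries and 0.0541, 0.0561 and 0.0451 under shSox9, with no overlap.

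**Figure D3:**
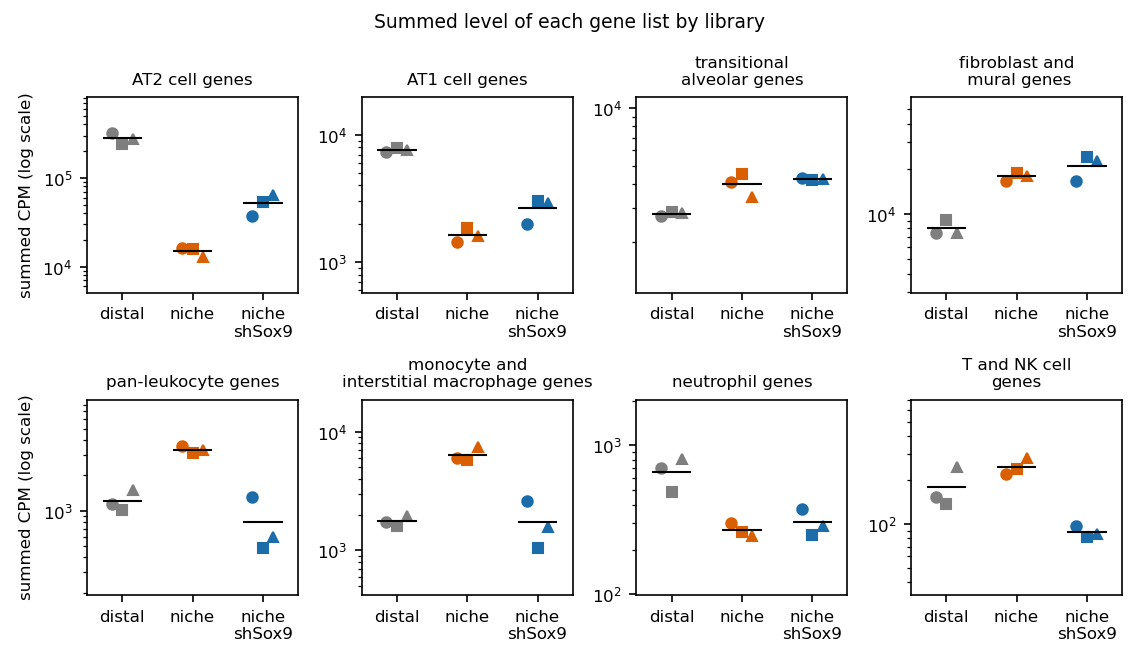
Summed CPM (log axis) of 8 gene lists in the distal, niche and shSox9 libraries; symbols are replicates and lines are means. AT2 genes lie at 12675 to 16147 CPM in niche libraries and 37016 to 64336 CPM under shSox9, and pan-leukocyte genes at 3118 to 3528 CPM and 479 to 1306 CPM.

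Among transcription factors of the lung epithelium most members were higher, with 13 of 20 called higher, 1 lower and a median of 0.90. The higher count was 8 without niche replicate 1. Nkx2-1, the lineage factor of lung epithelium, measured 7.53, 9.82 and 5.67 CPM in niche libraries and 18.5, 32.5 and 26.7 CPM under shSox9. The groups did not overlap, and it rose by 1.74 (SE 0.22, edgeR adjusted p = 0.000355). Tfcp2l1, a grainyhead-like factor of secretory epithelia, rose by 2.62 and Elf5, an ETS factor of distal lung epithelium, by 1.96. Id2, an inhibitor of helix-loop-helix factors, fell by 0.63.

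Epithelial junction genes gave 10 of 20 called higher and 1 lower, with a median of 0.63, and 6 higher without shSox9 replicate 2. Cldn3, a claudin, rose by 1.65, Crb3, an apical polarity protein, by 1.32 and Tjp1, the scaffold protein of tight junctions, by 0.70. Cdh1, for E-cadherin, was not called (0.39). The 1 lower member was Epcam, the gene of the protein in the sample titles, at 64.4, 69.4 and 28.8 CPM in niche libraries and 32.1, 26.5 and 23.1 CPM under shSox9. Niche replicate 3 lay inside the shSox9 range, so the groups overlapped. Epcam fell by 1.0 (SE 0.26, edgeR adjusted p = 0.0213), and this call was lost with niche replicate 1 or 2 or shSox9 replicate 2 or 3 left out, in the fit of the 6 libraries alone and with TPM, where the adjusted p of edgeR or limma was 0.052 to 0.0905.

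Genes of the transitional state between AT2 and AT1 cells did not move one way: 2 of 20 were called higher and 3 lower, with a median of -0.40. Krt8, the keratin that marks this state, was not called, with 432, 457 and 203 CPM against 495, 357 and 305 CPM (log2 fold change 0.08). Krt8 was also expressed by 4T1 cells: its mean was 1363 TPM in those from lung, 317 TPM in niche libraries and 335 TPM under shSox9. The part of 4T1 RNA in the Krt8 level was not tested. Lgals3, for galectin-3, which macrophages also make, fell by 1.26, Tnip3, an inhibitor of NF-kB signalling, by 1.95 (2.83 without shSox9 replicate 1) and Sprr1a, a cornified envelope protein, by 2.55. Ccn1, a matricellular protein, and Areg, an EGF family ligand, were the 2 higher members at 0.71 and 0.93. No member was called higher without niche replicate 1, shSox9 replicate 2 or shSox9 replicate 3, and 1 without niche replicate 3 or shSox9 replicate 1. The lower count was 8 without niche replicate 3 and 6 without shSox9 replicate 1.

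The airway lists are short, and their counts are read beside 9.68% of all tested genes called higher and 10.8% lower. The ciliated and basal lists lay above the lower share and the club list above the higher share. The ciliated cell list summed to 139, 151 and 142 CPM in niche libraries and 136, 127 and 124 CPM under shSox9. These sums did not overlap (exact two-sided permutation p = 0.1, n = 3 each). The 12 ciliated cell genes tested went both ways, with 5 log2 fold changes above 0 and 7 below. They ran from -3.94 to 4.36, and the member at 4.36 was not called. Of these edgeR called 3 lower and none higher, 7 had an unadjusted p under 0.05, DESeq2 called 4 lower and 1 higher, and edgeR called 1 higher without shSox9 replicate 2. Of 7 basal cell genes 3 were called lower. Foxj1, the regulator of motile cilia, measured 5.91, 10.4 and 3.98 CPM in niche libraries and 0.423, 0.466 and 0.425 CPM under shSox9. Each shSox9 library lay below each niche library, and Foxj1 fell by 3.94 (SE 0.38, edgeR adjusted p = 0.00012). Cfap126, a protein of cilia, fell by 2.40. Of the members above 0, Hydin, a protein of the ciliary axoneme named after its values were seen, had 0.553, 0.826 and 0.603 CPM against 1.27, 1.44 and 1.38 CPM and was not called (1.03, edgeR adjusted p = 0.0513). The basal count was 1 without niche replicate 2 or shSox9 replicate 2. The club cell list summed to 565, 588 and 670 CPM in niche libraries and 536, 735 and 886 CPM under shSox9, which overlapped. Its 3 members called higher, of 11 tested, were Gsta4, Cbr2 and Aldh1a1. The Aldh1a1 call was lost without any 1 niche library or without shSox9 replicate 2 or 3. Only 1 club cell gene was called lower, with 2 lower without niche replicate 1 and 3 without shSox9 replicate 3. That lower member was Bpifa1, a secreted airway protein, with 1.02, 14.3 and 3.92 CPM against 0.376, 0.279 and 0.212 CPM. Bpifa1 fell by 4.43, and by 2.99 without niche replicate 2, its highest library. Scgb1a1, the main club cell secretoglobin, had 81.0, 87.8 and 65.3 CPM against 22.5, 32.5 and 77.0 CPM and was not called (-0.83), but was without shSox9 replicate 3 (-1.51, edgeR adjusted p = 0.0196).

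Macrophage and monocyte genes were lower as a group, with all 20 tested called lower and a median of -2.55. Csf1r, the receptor for macrophage growth factor CSF1, measured 263, 278 and 318 CPM in niche libraries and 98.5, 19.7 and 31.6 CPM under shSox9. The groups did not overlap, and Csf1r fell by 2.52 (SE 0.46, edgeR adjusted p = 0.00324). Cd68, a lysosomal protein of macrophages, measured 280, 223 and 217 CPM against 91.3, 16.5 and 26.5 CPM and fell by 2.42 (SE 0.48, edgeR adjusted p = 0.00519). Mpeg1, a pore-forming protein of phagocytes, fell by 2.32 and Aif1, for the macrophage protein IBA1, by 3.24. Replicate 1 was the highest shSox9 library for Csf1r and Cd68, and without it Csf1r and Cd68 each fell by 3.48 and Aif1 by 4.15. Summed, the list came to 5987, 5769 and 7436 CPM in niche libraries, 2622, 1048 and 1561 CPM under shSox9, and 1600 to 1933 CPM in distal libraries. The niche libraries stood above both other groups, whose ranges overlapped.

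A pair of promoter windows from this list is shown because most of the list's windows held the letters GAGGAA, a core of the PU.1 binding motif. In 300-base RefSeq windows, 250 bases before and 50 after the start, GAGGAA occurred on either strand in 12 of 18 windows (66.7%), from 13 matched genes, beside 27.1% of all windows of tested genes. C1qb, for a subunit of complement C1q, fell by 2.94 in edgeR and has the letters near its start, and Cd68 has them farther upstream. Capitals mark the match. Each run is the 250 bases before the start, 5′ to 3′ on the gene's strand, from RefSeq on GRCm38.p6, for C1qb at chr4:136886201-136886450 (minus strand) and for Cd68 at chr11:69666171-69666420 (minus strand).
C1qb: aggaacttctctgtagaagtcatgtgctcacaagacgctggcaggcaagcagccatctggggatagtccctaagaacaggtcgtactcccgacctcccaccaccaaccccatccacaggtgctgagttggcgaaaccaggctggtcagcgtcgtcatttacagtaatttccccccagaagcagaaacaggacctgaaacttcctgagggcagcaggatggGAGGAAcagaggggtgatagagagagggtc
Cd68: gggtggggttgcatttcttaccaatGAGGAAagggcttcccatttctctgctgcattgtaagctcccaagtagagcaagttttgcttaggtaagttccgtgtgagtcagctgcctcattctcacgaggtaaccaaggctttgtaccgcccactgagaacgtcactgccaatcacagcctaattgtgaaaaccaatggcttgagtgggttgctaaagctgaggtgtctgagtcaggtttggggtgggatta
A match is a string of letters and not a measured site.

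Genes shared by all leukocytes and those of alveolar macrophages were also lower. Of 20 pan-leukocyte genes, 18 were called lower, with a median of -2.14. Ptprc, for CD45, measured 210, 191 and 179 CPM in niche libraries and 69.4, 29.5 and 34.8 CPM under shSox9, with no overlap, and fell by 2.12 (SE 0.30, edgeR adjusted p = 0.000706). Ikzf1, a lymphoid and myeloid transcription factor, fell by 2.17. Of 16 alveolar macrophage genes 12 were called lower, with a median of -3.12. Chil3, a chitinase-like secreted protein of alveolar macrophages, measured 1092, 174 and 156 CPM against 20.3, 9.73 and 5.89 CPM and fell by 5.30 (SE 0.86, edgeR adjusted p = 0.00159), while DESeq2 gave no adjusted p for it. Niche replicate 1 was the highest by far, and the other niche libraries were still above every shSox9 library. Without niche replicate 1 Chil3 fell by 3.78, and without shSox9 replicate 1 by 5.91. Itgax, for CD11c, fell by 3.07 (3.96 without shSox9 replicate 1). Ear2, a ribonuclease of alveolar macrophages with a near-identical copy in Ear1, fell by 4.08 (3.03 without niche replicate 1).

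Of 16 dendritic cell genes 8 were called lower with a median of -1.67, and 14 were called lower without shSox9 replicate 1. Irf8, a transcription factor of dendritic cells and monocytes, measured 224, 244 and 287 CPM in niche libraries and 116, 92.5 and 112 CPM under shSox9, with no overlap, and fell by 1.23 (SE 0.13, edgeR adjusted p = 0.000149). Clec10a, a lectin of conventional dendritic cells and macrophages, fell by 3.07 (3.71 without shSox9 replicate 1). In the lymphocyte lists fewer members were called: 4 of 21 T and NK cell genes were called lower and 1 higher, and 2 of 14 B and plasma cell genes were called lower. Most were below 0, 17 of 21 and 11 of 14. The T and NK sum was 221, 237 and 284 CPM in niche libraries and 96.7, 81.6 and 85.9 CPM under shSox9. The B and plasma sum was 189, 180 and 192 CPM against 80.1, 48.8 and 84.0 CPM. Neither sum overlapped (exact two-sided permutation p = 0.1 for each, n = 3 each). Cd3e, a subunit of the T cell receptor complex, was the T and NK member called higher, with 2.81, 2.43 and 1.75 CPM against 6.67, 4.38 and 6.05 CPM (log2 fold change 1.28, SE 0.31, edgeR adjusted p = 0.0136). Cd4, the co-receptor of helper T cells, fell by 2.11, and Ccl5, a chemokine of T and NK cells, by 2.30. In the neutrophil list, edgeR called 1 of 12 tested members higher and none lower, 5 had an unadjusted p under 0.05, DESeq2 called 2 higher, and edgeR called 2 higher without niche replicate 1 and 1 lower without shSox9 replicate 1. That member was Hdc, for histidine decarboxylase, with 37.4, 32.3 and 38.9 CPM against 83.3, 106 and 88.0 CPM (log2 fold change 1.35). S100a8, an abundant neutrophil protein, overlapped between the groups and was not called (1.11).

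**Figure D4:**
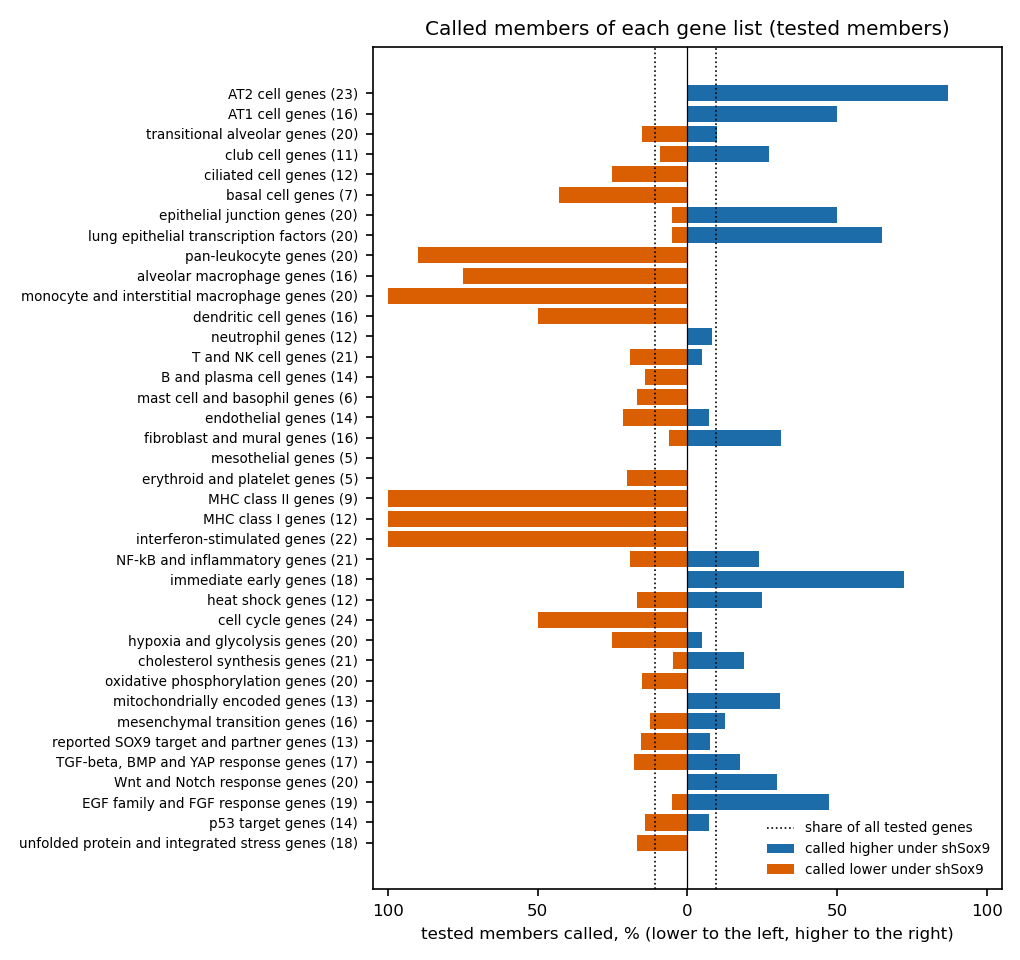
Share of tested members called higher (right) or lower (left) under shSox9 for each gene list with at least 5 tested members, with the number tested in parentheses; dotted lines mark 9.68% and 10.8%, the shares of all tested genes called higher and lower. All 20 macrophage genes, 9 MHC class II genes, 12 MHC class I genes and 22 interferon-stimulated genes are called lower, and 20 of 23 AT2 genes higher.

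All 9 MHC class II genes, which present antigen to CD4 T cells, were called lower, with a median of -2.09, and all 12 MHC class I genes, with a median of -0.89. Cd74, the invariant chain of class II, measured 9314, 10769.5 and 13489.9 CPM in niche libraries and 3435, 2758 and 2414 CPM under shSox9. No library overlapped, and Cd74 fell by 1.96 (SE 0.20, edgeR adjusted p = 0.000148). Ciita, the activator of class II transcription, fell by 1.5, H2-Aa, a class II alpha chain, by 2.34, B2m, the light chain of class I, by 0.86, and the peptide transporter gene Tap1 by 1.21. H2 genes share near-identical stretches, and their split depends on the authors' counting. Leukocytes and AT2 cells both express class II, and the distal libraries held 13581 to 17787 CPM of it at a summed pan-leukocyte level of 1009 to 1492 CPM. Under shSox9 class II came to 4711, 3548 and 3230 CPM with pan-leukocyte genes at 1306, 479 and 602 CPM. The ratio of the class II sum to the pan-leukocyte sum was 3.82, 4.98 and 5.96 in niche libraries and 3.61, 7.41 and 5.36 under shSox9, which overlapped, and 11.9 to 14.2 in distal libraries. The ratio of the class II sum to the AT2 sum was 0.835, 0.99 and 1.55 in niche libraries and 0.127, 0.0655 and 0.0502 under shSox9, with no overlap, and 0.0497 to 0.0644 in distal libraries. For class I the ratio to the pan-leukocyte sum was 3.02, 3.93 and 3.99 in niche libraries and 4.94, 14.3 and 10.3 under shSox9, also with no overlap. The part of leukocyte RNA in the class I and class II differences was not tested.

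All 22 interferon-stimulated genes were called lower, with a median of -1.21. Irf7, a transcription factor of the interferon response, measured 310, 361 and 501 CPM in niche libraries and 134, 131 and 132 CPM under shSox9. The groups did not overlap, and Irf7 fell by 1.56 (SE 0.16, edgeR adjusted p = 0.000131). Oas1a, a sensor of double-stranded RNA in a family of close copies, measured 166, 186 and 205 CPM against 52.6, 48.2 and 46.2 CPM and fell by 1.92 (SE 0.11, edgeR adjusted p = 1.66e-05). Cxcl9, a chemokine that interferon gamma raises, fell by 2.41. The 22 genes summed to 4531, 6093 and 7095 CPM in niche libraries, 2326, 2471 and 2485 CPM under shSox9 and 2557 to 3183 CPM in distal libraries, so the shSox9 libraries lay below both other groups. The ratio of the interferon sum to the pan-leukocyte sum was 1.28, 1.95 and 2.15 in niche libraries and 1.78, 5.16 and 4.13 under shSox9, so the groups overlapped only through shSox9 replicate 1.

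The promoters of 3 interferon-stimulated genes are shown because a motif that interferon regulatory factors bind was in most of this list's windows. The motif searched is GAAA, then 2 bases of any kind, then GAAA. It occurred on either strand in 10 of 18 windows (55.6%), from 16 matched genes, beside 3.25% of all windows of tested genes. Isg15, a ubiquitin-like modifier, fell by 1.07 in edgeR and Ifit1, an RNA-binding antiviral protein, by 0.93. Capitals mark the matches, joined where they overlap, in the 250 bases before each start, printed as for the macrophage genes from RefSeq on GRCm38.p6: Isg15 at chr4:156200819-156201068 (minus strand), Ifit1 at chr19:34640639-34640888 (plus strand) and Oas1a at chr5:120907526-120907775 (minus strand).
Isg15: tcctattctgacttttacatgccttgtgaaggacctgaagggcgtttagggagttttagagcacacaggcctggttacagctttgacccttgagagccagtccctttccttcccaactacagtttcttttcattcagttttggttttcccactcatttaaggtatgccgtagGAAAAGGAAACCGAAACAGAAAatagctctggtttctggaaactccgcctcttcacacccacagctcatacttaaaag
Ifit1: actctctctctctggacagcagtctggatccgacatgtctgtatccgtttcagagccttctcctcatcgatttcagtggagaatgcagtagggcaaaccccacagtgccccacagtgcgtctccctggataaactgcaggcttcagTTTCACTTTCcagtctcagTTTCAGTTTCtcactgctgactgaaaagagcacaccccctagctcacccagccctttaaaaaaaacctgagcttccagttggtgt
Oas1a: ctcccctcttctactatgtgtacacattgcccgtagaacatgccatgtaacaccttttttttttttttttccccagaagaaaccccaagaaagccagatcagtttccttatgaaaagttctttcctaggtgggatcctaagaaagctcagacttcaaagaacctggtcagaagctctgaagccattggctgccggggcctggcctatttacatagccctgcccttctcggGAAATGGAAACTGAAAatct
Among all genes called lower, 8.08% of windows held the interferon regulatory factor motif and 34.4% held GAGGAA, and among genes called higher 2.41% and 24.1%. ACAATGG, a SOX motif, was in 2.28% of windows of genes called higher, 2.01% of genes called lower and 2.28% of all tested genes. These shares are descriptions with no test.

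**Figure D5:**
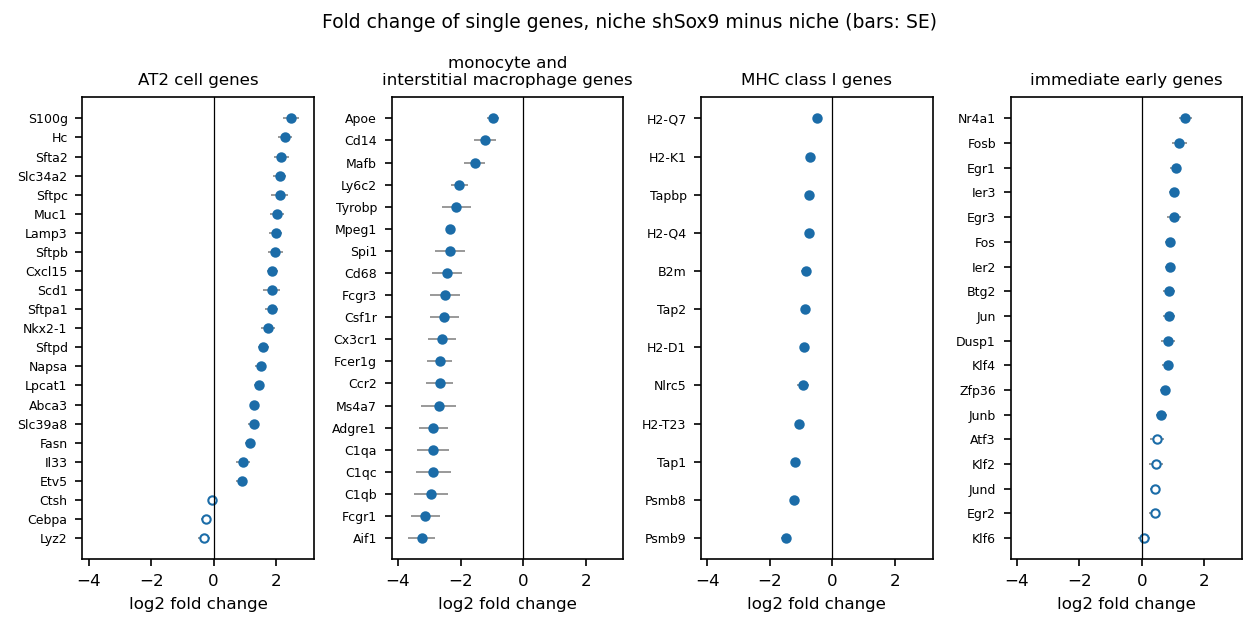
Log2 fold change, shSox9 minus niche, with its standard error for each tested gene of 4 lists; filled points passed the adjusted p threshold of 0.05 and open points did not. The 12 MHC class I genes run from -1.48 to -0.48 and the 18 immediate early genes from 0.08 to 1.39.

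Immediate early genes, the fast transcriptional response to growth factors and to tissue handling, were higher as a group: edgeR called 13 of 18 higher and DESeq2 14, neither called any lower, and the median was 0.85. Egr1, a zinc finger factor of this response, measured 1435, 1634 and 1763 CPM in niche libraries and 2936, 3606 and 3695 CPM under shSox9. Each shSox9 library was above each niche library, and Egr1 rose by 1.08 (SE 0.18, edgeR adjusted p = 0.00171). Nr4a1, an orphan nuclear receptor, rose by 1.39 and Fosb, a subunit of AP-1, by 1.20. The list summed to 14984 to 17670 CPM in niche libraries, 25671 to 34200 CPM under shSox9 and 16427 to 24145 CPM in distal libraries. Of 13 mitochondrially encoded genes 4 were called higher, 2 without niche replicate 1 or 2, 8 without shSox9 replicate 2 and 1 without shSox9 replicate 3. The part of cell handling in these differences was not tested.

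NF-kB and inflammatory genes split, with 5 of 21 called higher and 4 lower. Cxcl1, a chemokine that attracts neutrophils, measured 193, 194 and 195 CPM in niche libraries and 457, 588 and 603 CPM under shSox9. The groups did not overlap, and Cxcl1 rose by 1.5 (SE 0.12, edgeR adjusted p = 6.58e-05). Nfkbiz, a nuclear regulator of NF-kB, rose by 1.29. The lower members included the cytokine gene Tnf, made mainly by myeloid cells, which fell by 2.65. The lower count was 2 without shSox9 replicate 3.

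Cell cycle genes were lower in part: edgeR called 12 of 24 lower and DESeq2 14, neither called any higher, and the median was -0.70. The edgeR count was 5 without niche replicate 1 or 2 and 7 without shSox9 replicate 2 or 3. Cdk1, the kinase that drives entry into mitosis, measured 58.1, 61.0 and 40.8 CPM in niche libraries and 25.9, 29.8 and 20.4 CPM under shSox9. Niche values were all the higher ones, and Cdk1 fell by 1.07 (SE 0.23, edgeR adjusted p = 0.00741). Pcna, the sliding clamp of DNA replication, fell by 0.71. Mki67, for the proliferation antigen Ki-67, overlapped and was not called (-0.31). Summed, the list came to 1863, 1962 and 1474 CPM against 1381, 1255 and 879 CPM, and 391 to 555 CPM in distal libraries. The 4T1 panel median, relative to 4T1 cells from lung, was 13.7% to 23.01% in niche libraries and 10.9% to 19.7% under shSox9. The part of 4T1 RNA in the cell cycle counts was not tested.

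Growth factor and Wnt response genes were mostly higher or not called. Of 19 EGF family and FGF response genes 9 were called higher and 1 lower, but the higher count was 4 without niche replicate 1 or 3 and 5 without shSox9 replicate 2 or 3. Etv5, an ETS factor that FGF signalling induces and AT2 cells need, rose by 0.90, and Spry2, a feedback inhibitor of receptor tyrosine kinases, by 0.47. Dusp6, a phosphatase that dampens ERK and is induced by it, fell by 0.62. Of 20 Wnt and Notch response genes edgeR called 6 higher and none lower, 9 had an unadjusted p under 0.05, and DESeq2 called 6 higher and 1 lower. The edgeR count of higher genes was 3 without shSox9 replicate 2. Nkd1, a feedback inhibitor of Wnt signalling, measured 13.9, 15.8 and 13.2 CPM in niche libraries and 30.4, 35.5 and 34.2 CPM under shSox9. All shSox9 values exceeded all niche values, and Nkd1 rose by 1.22 (SE 0.12, edgeR adjusted p = 0.000111). Notum, a secreted enzyme that inactivates Wnt ligands, rose by 0.97, while Axin2, a direct Wnt target, was not called (0.24). Of 13 reported SOX9 target and partner genes tested, 1 was called higher and 2 lower, with a median of 0.13, and 2 were called higher without niche replicate 2. Krt23, a keratin that distal libraries held at 109 to 141 CPM, rose by 2.19, Tnc, for tenascin-C, fell by 0.46 and Rassf4, a Ras association protein, by 2.70 (3.62 without shSox9 replicate 1).

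Stress and metabolic lists had at most 5 members called in 1 direction by edgeR, and several counts rested on single libraries. Among all tested genes 9.68% were called higher and 10.8% lower. Some of these lists, such as heat shock genes and TGF-beta, BMP and YAP responses, lay above both shares. Of 20 hypoxia and glycolysis genes edgeR called 1 higher and 5 lower, with 9 lower without shSox9 replicate 1 and 3 without shSox9 replicate 3, and DESeq2 called 7 lower. In the list of TGF-beta, BMP and YAP responses, with 17 tested, edgeR called 3 higher and 3 lower, and DESeq2 called 7 higher. Its higher edgeR count was 0 without niche replicate 1, 1 without shSox9 replicate 2 or 3 and 6 without shSox9 replicate 1. Of 18 unfolded protein and integrated stress genes edgeR called 3 lower and none higher, 9 had an unadjusted p under 0.05, and DESeq2 called 6 lower and 2 higher. Without shSox9 replicate 1 edgeR called 6 of them lower and 1 higher. Of 21 cholesterol synthesis genes 4 were called higher and 1 lower. The higher count there was 0 without shSox9 replicate 2, 1 without niche replicate 2 or 3 and 2 without shSox9 replicate 3, and the lower member was lost without niche replicate 1 or 3. Of 16 mesenchymal transition genes 2 were called higher and 2 lower, with 0 higher without niche replicate 1 or 2 or shSox9 replicate 3, 1 higher without niche replicate 3 or shSox9 replicate 2, and 1 lower without shSox9 replicate 2. Of 12 heat shock genes 3 were called higher and 2 lower, with 1 lower without niche replicate 1 or 2 or shSox9 replicate 3. Of 20 oxidative phosphorylation genes edgeR called 3 lower and none higher, 5 had an unadjusted p under 0.05, and DESeq2 called 4 lower. Of 14 p53 target genes 1 was called higher and 2 lower, with 1 lower without any 1 niche library or shSox9 replicate 3.

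Genes of other cells in the sorted fraction were counted with the same fit. Of 16 fibroblast and mural cell genes 5 were called higher and 1 lower, with a median of 0.26, and the higher count was 3 without niche replicate 1 or 2 or shSox9 replicate 3. Inmt, a methyltransferase of lung fibroblasts, rose by 1.24, Mfap4, a microfibril protein, by 0.86 and Npnt, a matrix protein of the alveolar wall, by 0.79. Col1a1 was not called, with 5856, 7043 and 6063 CPM in niche libraries and 4382, 7657 and 6456 CPM under shSox9 (log2 fold change -0.04). Of 14 endothelial genes 3 were called lower and 1 higher, with 1 lower when niche replicate 1 or 2 or shSox9 replicate 1 or 2 was left out and 5 without shSox9 replicate 3. Lyve1, a hyaluronan receptor of lymphatic vessels and of some macrophages, fell by 1.88, and Esam, an adhesion molecule of endothelial junctions, rose by 0.74. Pecam1, for CD31, was not called (-0.70), but was without shSox9 replicate 3 (-1.34, edgeR adjusted p = 0.0114). None of 5 mesothelial genes was called by edgeR, 1 had an unadjusted p under 0.05 and DESeq2 called 1 lower. Without niche replicate 3 edgeR called 1 lower, and without shSox9 replicate 2 it called 3.

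Single genes with the largest changes came from the same cell types in part. Among the 15 largest rises were the AT2 genes Hc (2.27) and S100g, for a calcium-binding protein, the chloride channel gene Cftr (2.29, and 2.90 without niche replicate 2) and the potassium channel subunit gene Kcne2. The largest of these 15 rises was that of Ttc21a, a relative of a transport protein of cilia. Ttc21a had 0.85, 0.478 and 0.302 CPM against 4.94, 7.82 and 6.53 CPM and a log2 fold change of 3.51 (SE 0.40, edgeR adjusted p = 0.000256). Ibsp, for bone sialoprotein, stood apart because distal libraries held almost none: it measured 0.893, 0.521 and 0.603 CPM in niche libraries, 10.5, 3.73 and 1.49 CPM under shSox9 and a mean of 0.237 CPM in distal libraries. Ibsp was called (2.94, edgeR adjusted p = 0.0138), but not without niche replicate 2 or shSox9 replicate 1, where the adjusted p was 0.0522 to 0.0598.

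Among the 15 largest falls were 3 members of the Cd209 family of C-type lectins, which share sequence: Cd209f fell by 7.17, Cd209g by 6.84 and Cd209b by 4.75. The 3 shSox9 libraries together held 5 counts of Cd209f and 8 of Cd209g, beside 794 and 1018 in the niche libraries, so the fitted sizes are loose: Cd209f was -10.87 without shSox9 replicate 2, the only shSox9 library with a count, and Cd209g was -9.04 without shSox9 replicate 3 and -6.25 without shSox9 replicate 2. Chil3, Ear1, Ear2 and the Fc receptor gene Fcgr4 (-3.88) are also expressed in myeloid cells. Ear1 was -3.90, with -2.97 without niche replicate 1 and -4.68 without shSox9 replicate 1. Dnase1l3, a secreted nuclease of macrophages and dendritic cells, measured 320, 519 and 616 CPM in niche libraries and 32.4, 6.75 and 11.5 CPM under shSox9. Niche values all exceeded shSox9 values, and Dnase1l3 fell by 4.84 (SE 0.50, edgeR adjusted p = 0.000149), and by 5.73 without shSox9 replicate 1. Lncenc1, a long noncoding RNA, was different in that cultured 4T1 cells held it at 61.9 CPM, and 4T1 cells from lung at 9.31 CPM. It measured 6.85, 11.8 and 2.65 CPM against 0.235, 0.140 and 0.478 CPM and fell by 4.65 (4.06 without niche replicate 2).

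The called genes were also sorted by their levels in cultured 4T1 cells, which hold no leukocytes. Of 123 epithelial list genes tested, 63 had at least 1 CPM in every culture and 38 had under 0.1 CPM. For the 125 leukocyte list genes these counts were 23 and 78. Some lung epithelial genes are thus absent from culture too, so absence does not mark a gene as leukocyte. Of the 1707 genes called higher, 947 (55.5%) had at least 1 CPM in every culture and 441 (25.8%) had under 0.1 CPM. Of the 1909 called lower, 1231 (64.5%) were present in culture by that limit and 449 (23.5%) absent, beside 65.2% and 16.9% of all tested genes. The leukocyte lists held 65 of the genes called lower and 2 of those called higher, and all 38 lists held 110 genes called higher and 163 called lower. The remaining called genes were not assigned to a cell type.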

How the data were processed

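RNA was sequenced from 15 libraries, and 9 of sorted epithelium entered the fit. Per the submitters' processing notes the authors used RSEM, DESeq2 and the build GRCm38; no version, aligner, annotation release or strand setting is given in the sources used here. RSEM splits reads shared by similar genes, so the deposited expected counts need not be whole, and near-identical copies and overlapping genes are uncertain. The deposited TPM, scaled by the authors for length, served for levels between genes and for 1 alternative; FPKM was not used. Annotation was GENCODE M21, which held 54809 of 54838 identifiers.

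Expected counts were rounded and tested with edgeR 4.0.16 (R 4.3.3) by its quasi-likelihood test: filterByExpr, TMM factors, a model of 3 epithelial groups of 3 libraries each with no covariate, and Benjamini-Hochberg adjustment over 17640 genes (called: adjusted p under 0.05). The 9 libraries share one estimate of the spread. Replicates are pools of 5 lungs per the series' text. Depth limits low genes: 3 counts are 0.139 to 0.187 CPM in the 6 libraries. Replicates of a group differed by more than sampling noise (chi-square per degree of freedom 12.9 to 42.1). List sums and shares were compared over libraries with exact two-sided permutation tests. The method was tested on simulated counts in which a small set of genes changed and all groups otherwise shared their means. That setting is simpler than these data and held no difference in cell mixture.

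The comparison, the 38 gene lists and the named genes were chosen with earlier results of these data known. Named genes were the 15 largest rises and falls among called genes that did not overlap between the groups and averaged 5 CPM or more in the higher one, up to 4 called members of each list with the smallest adjusted p, and a set of markers. Unnamed gene models were left out of the largest rises and falls. From the same lists, but outside that rule and after their values were seen, came Ctsh, Cebpa, Lyz2, Areg, C1qb, H2-Aa, B2m, Cxcl9, Isg15, Ifit1, Fosb, Tnf, Mki67 and Axin2. Alternatives were other scalings, filters, DESeq2 1.42.0, limma 3.58.1 on log2(TPM + 1), a replicate block, the 6 libraries alone, other limits for the panel and for levels in culture, and leaving out each of 6 libraries.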

Additional observations from a re-analysis of the deposited data

How the results depend on the processing

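With single libraries left out the number of called genes ran from 2238 to 4224, the higher calls from 940 to 2039, the lower calls from 1298 to 2185, called epithelial list genes from 43 to 53 and leukocyte list genes from 62 to 75. Sox9 ran from -0.05 (without shSox9 replicate 1) to 0.51. Other settings gave 3051 to 4300 calls, the fewest with TPM and the most with DESeq2. Of 164 named called genes, 0 to 21 lost the call per setting and none changed sign while called. Values near 0 changed sign: Krt8 to -0.20 and -0.14 without niche replicate 3 or shSox9 replicate 1 (up to 0.28 with others left out), Hopx to -0.01 with the block on 6 libraries, -0.02 with TPM or without niche replicate 1 or 3, and -0.24 without shSox9 replicate 3 (up to 0.17), and Col1a1 to 0.04 with upper-quartile factors, 0.05 without niche replicate 2 and 0.16 without shSox9 replicate 1 (down to -0.22). List levels changed sign for transitional genes (-0.28 as a mean of log2 values, -0.02 to 0.18 with libraries left out, below 0 without niche replicate 3), club genes (-0.20 as a mean of log2 values) and neutrophil genes (-0.01 to 0.29, below 0 without shSox9 replicate 1). The difference in detected genes became -154.8 without niche replicate 3 and -66.17 without shSox9 replicate 1, and was at most 328.2. With limits of 5 and 0.5 CPM in culture, 44.6% of higher and 57.3% of lower calls were present and 35.9% and 30.0% absent. The panel difference ran from -5.57 to -0.562 percentage points with libraries left out. The cause of these changes was not tested.

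The replicate block was fitted although the labels do not say that equal letters share mice. Deviations from the group mean correlated at 0.11, 0.08 and 0.08 for equal-numbered niche and shSox9 libraries, and at -0.0847 to -0.00159 for other numbers. Deviations sum to 0 within a group, so these values are not independent: positive values for equal numbers push the others down. The pattern is a hint from the data only. The block gave 3638 calls in 9 libraries and 3987 in 6. Sox9 stayed uncalled with the block, at 0.24 in both (edgeR adjusted p = 0.443 and 0.15). Of the named genes not called without it, the block on 9 libraries called S100a8 (1.09, edgeR adjusted p = 0.0131) and Upk1b (-1.21, 0.0315), and the block on 6 called S100a8 (1.11, 0.00242), Cdh1 (0.40, 0.0185) and Msln (-0.47, 0.0188). Of 164 called, it lost Krt14, Zeb1 and mt-Cytb in 9 libraries and Sp5 in 6. With no filter on low counts S100a8, Scgb1a1, Pecam1 and Upk1b were called.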
